A study of Mus musculus with 120 samples.

Results

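Hepatokines are proteins that the liver secretes into the blood and that act on other tissues. Transcripts of 8 hepatokine genes were followed here: Ahsg, Fetub, Rbp4, Lect2, Fgf21, Inhbe, Angptl4 and Angptl6. Every probe set whose platform annotation gave a single gene symbol among these was taken, which made 9 probe sets of the 45037 measured, or 8 of the 18193 genes with such a probe set. All 9 were on the MOE430A array and 0 on the MOE430B array, and 0 further probe sets held a member among several symbols. Angptl4 had 2 probe sets and each other gene had 1.

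The livers came from 60 F2 mice of a cross between C57BL/6J and BTBR. All of the mice were ob/ob, so every animal lacked leptin and there was no lean group. They were 31 females and 29 males, killed at 14 weeks after 4 h without food, on a chow with 6.5% fat, and had been picked from a larger panel by their genotypes. For the same animals, body weight and fasting plasma levels of insulin, glucose and triglyceride had been taken at 8 and 10 weeks of age, and liver triglyceride and genotypes at 194 markers were also deposited. Genotypes were coded A and B for the homozygotes and H for the heterozygote, and which founder strain is A and which is B is not stated in the labels or files used.

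The fetuins Ahsg and Fetub are abundant plasma glycoproteins of the cystatin superfamily, and Ahsg can bind and inhibit the insulin receptor. Rbp4 carries retinol from the liver in the circulation, bound to transthyretin. Lect2 is a leukocyte chemotactic factor made by hepatocytes. Fgf21 is a fasting and stress hormone that acts through FGF receptors with the co-receptor beta-Klotho, Inhbe encodes the activin subunit beta E, Angptl4 inhibits lipoprotein lipase, and Angptl6 is a relative of it. Fgf21 and Angptl4 are known targets of the fatty acid receptor PPAR alpha, and Fgf21 and Inhbe are known to be induced through ATF4, the transcription factor of the integrated stress response.

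Levels are RMA values on the log2 scale, so a difference of 1 is a doubling. MOE430A values ran from 3.08 to 14.57, the medians of the arrays from 6.97 to 7.09, and probe sets had a median SD of 0.133 between mice. Each mouse was a separate animal measured once per array type, so SDs describe differences between animals, and precision is limited by how many there were. In a whole liver, fewer cells of a type and less RNA per cell cannot be told apart. All 18 hepatocyte probe sets of the marker list lay above the median of their array type. In 5 mice (111, 167, 474, 484 and 559) an array correlated poorly with the others of its type. Over the 100 probe sets that both types carry, the MOE430A arrays of 3 mice (223, 474 and 608) resembled some other animal's MOE430B array more than their own. In 5 mice the Xist level went against the recorded sex. Mice 186, 190, 458 and 554, recorded as females, had Xist levels of 6.06 to 6.38, while the other 27 females lay at 12.4 and below, and above the midpoint of 8.9 between the sexes. Mouse 513, recorded as a male, had 11.44, where the other 28 males had 5.79 to 6.69. The Y-linked Eif2s3y stood at 5.25 and 4.53 in mice 186 and 190, above the 3.44 to 3.92 of the other females, but within that range in mice 458 (3.84), 554 (3.58) and 513 (3.71). Groups follow the recorded sex. Where leaving these animals out ended a call of a named result, that value is given, except where stated as not examined.

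Ahsg and Rbp4 had SDs slightly above the median SD of the array. Ahsg ran from 12.53 over a median of 12.88 to 13.2, with a mean of 12.86 ± 0.156 (SD, n = 60). Rbp4 ran from 12.2 over 13.06 to 13.31, with a mean of 13.04 ± 0.169. Only mouse 167 lay far below the rest for Rbp4, since the next lowest mouse had 12.72. Fetub spread more widely, from 10.11 in mouse 474 over 10.71 to 11.57 in mouse 22, with a mean of 10.74 ± 0.283. Levels of different probe sets do not rank the abundance of their transcripts.

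Ahsg and Fetub are neighbours on Chromosome 16, with start sites 26367 bases apart. Their promoters are shown because the transcripts of these neighbours went together across the mice. The 250 bases before each start site (RefSeq, GRCm38.p6) lie at chr16:22891765-22892014 for Ahsg and chr16:22918132-22918381 for the first of 2 start sites of Fetub, both on the plus strand. Capitals mark CTGTTTGCAAG, the longest run that the 2 windows share, which holds the forkhead motif TGTTTGC.
Ahsg: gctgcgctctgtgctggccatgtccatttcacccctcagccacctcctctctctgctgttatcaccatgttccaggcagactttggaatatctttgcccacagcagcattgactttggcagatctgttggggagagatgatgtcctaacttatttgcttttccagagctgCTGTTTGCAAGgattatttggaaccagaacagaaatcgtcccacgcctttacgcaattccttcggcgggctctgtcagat
Fetub: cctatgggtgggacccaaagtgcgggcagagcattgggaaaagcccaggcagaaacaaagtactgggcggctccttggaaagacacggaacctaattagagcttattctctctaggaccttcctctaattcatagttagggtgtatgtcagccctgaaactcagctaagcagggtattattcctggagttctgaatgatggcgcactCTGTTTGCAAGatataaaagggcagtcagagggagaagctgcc
The run began 80 bases before the start of Ahsg and 43 bases before that of Fetub. Searched on both strands, it occurred in 13 of 32851 promoter windows of the same length (0.03957%), and TGTTTGC alone in 4.301%. The motif and the run were chosen after the sequences were seen.

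Lect2, Inhbe and Fgf21 had the widest ranges of the 9 probe sets, at 2.22, 1.68 and 1.62 log2 units. Lect2 ran from 8.96 in mouse 2 over 10.01 to 11.18 in mouse 111, with a mean of 9.99 ± 0.371 (SD, n = 60), and its next highest mouse had 10.45. Fgf21 ran from 7.49 over 7.99 to 9.11, with a mean of 8.03 ± 0.259. Its highest values, 9.11 in mouse 2 and 8.81 in the next mouse, stood apart from the remaining ones. Inhbe ran from 7.49 in mouse 523 over 8.40 to 9.17, with a mean of 8.43 ± 0.325, and no mouse stood apart at its upper end.

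Fgf21 and Inhbe lie on different chromosomes, and their promoters are shown for their shared ATF4 motif. The 250 bases before the start are chr7:45615491-45615740 for Fgf21 and chr10:127351849-127352098 for Inhbe, both on the minus strand of GRCm38.p6 and written 5′ to 3′ along the gene. Capitals mark TTGCATCA, the composite site of C/EBP and ATF factors that ATF4 can bind.
Fgf21: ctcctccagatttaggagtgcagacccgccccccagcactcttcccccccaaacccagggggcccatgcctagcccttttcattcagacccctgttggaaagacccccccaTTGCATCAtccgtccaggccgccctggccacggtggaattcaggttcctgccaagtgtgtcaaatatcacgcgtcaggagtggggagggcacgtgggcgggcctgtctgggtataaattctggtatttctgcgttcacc
Inhbe: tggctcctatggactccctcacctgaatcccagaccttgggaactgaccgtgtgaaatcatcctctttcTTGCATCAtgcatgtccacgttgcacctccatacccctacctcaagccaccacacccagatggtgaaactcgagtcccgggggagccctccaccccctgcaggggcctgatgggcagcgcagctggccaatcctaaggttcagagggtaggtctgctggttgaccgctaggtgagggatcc
The motif began 139 bases before the start of Fgf21 and 181 bases before that of Inhbe. It occurred on either strand in 260 of 32851 windows (0.7915%), and with 1 more shared base, as TTGCATCAT, in 85 (0.2587%). Of the 8 genes, 7 had a promoter in the table. TATAAA was held by the windows of Fgf21, Fetub and Rbp4 and by 12.37% of all windows. These are matches of letters, and binding was not measured.

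The angiopoietin-like transcripts behaved unlike each other. By the main Angptl4 probe set this gene ran from 9.21 over 9.91 to 10.48, with a mean of 9.86 ± 0.303 (SD, n = 60). Its other probe set, called dim here, stayed between 3.45 and 3.78 around a median of 3.63, and its mean of 3.62 lay above only 1.01% of the MOE430A probe sets. The 2 probe sets did not follow each other, with r = -0.089 (permutation p = 0.497) and Spearman's rho = -0.072 (permutation p = 0.585), so they cannot be read as repeats of 1 measurement. Angptl6 ran from 7.9 over 8.15 to 8.33, with an SD of 0.100, and was the steadiest hepatokine apart from the dim Angptl4 probe set.

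**Figure D1:**
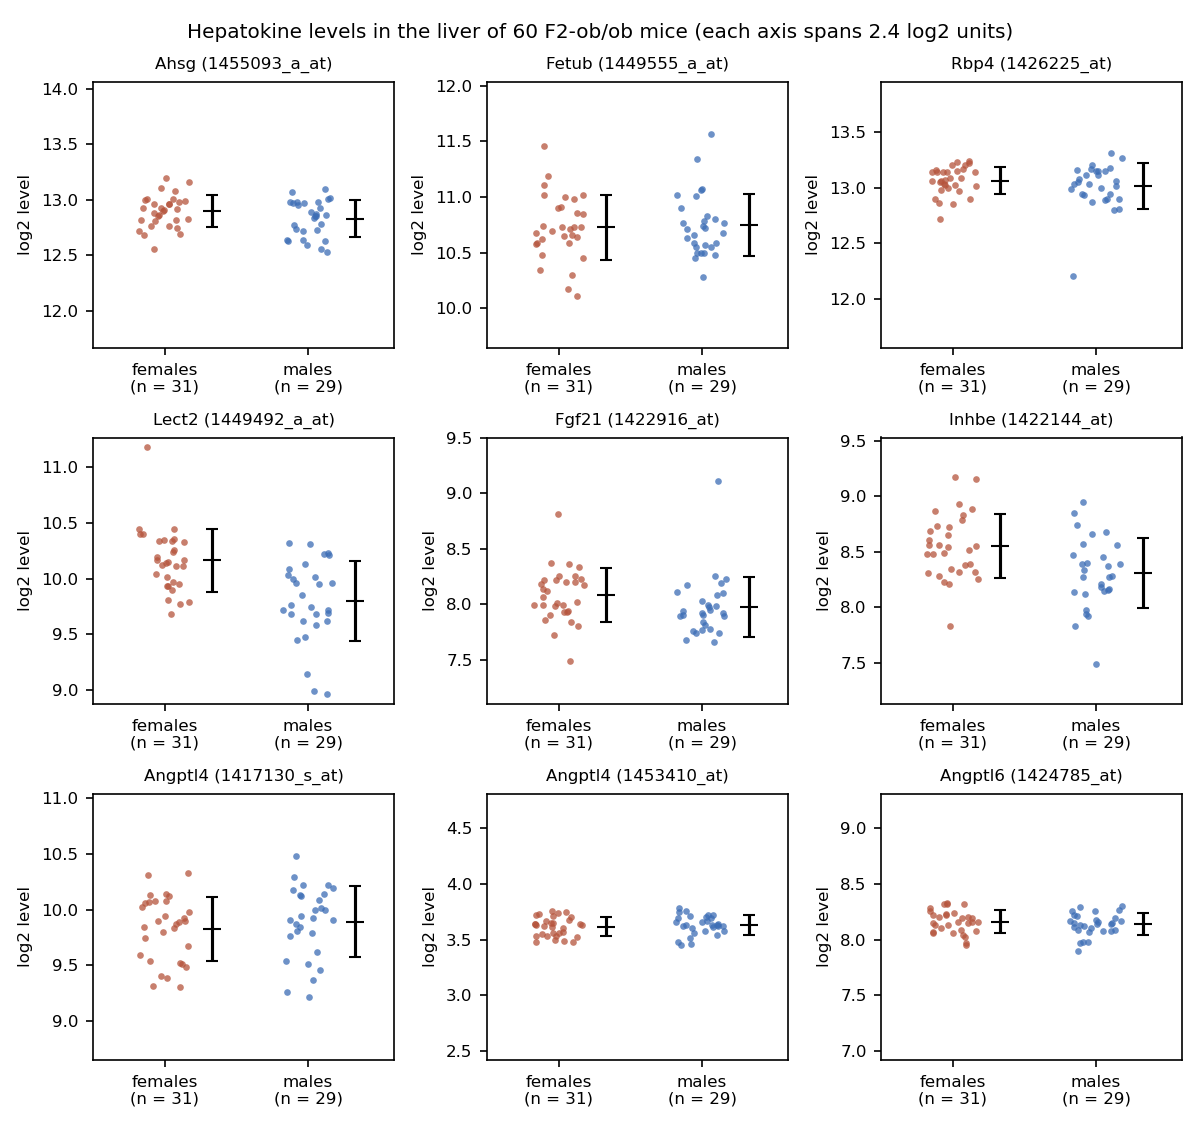
Levels of the 9 hepatokine probe sets (vertical axes, RMA log2 values) in 31 females and 29 males by recorded sex, 1 point per mouse, with the mean and SD beside the points. Lect2 lies higher in females, and single mice stand apart for Rbp4 (12.2), Fgf21 (9.11) and Lect2 (11.18).

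Lect2 was the only hepatokine whose difference between females and males passed the test. It ran from 9.68 over 10.15 to 11.18 in females and from 8.96 over 9.76 to 10.32 in males. The ranges overlapped widely, but 30 of 31 females lay above the median male and 24 of 29 males below the median female. Mean levels were 10.16 ± 0.286 (SD, n = 31) and 9.80 ± 0.362 (SD, n = 29), a difference of 0.37 ± 0.081 (SE; limma, adjusted p = 0.00802). Without the 5 mice whose Xist level went against the recorded sex it was 0.40 (adjusted p = 0.00460).

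One of the 9 probe sets was thus called, where 1.45% of all probe sets were. The Lect2 difference lost its call once the first principal component of the arrays was a covariate, at 0.28 (adjusted p = 0.118). That component correlated with Lect2 at r = 0.446.

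Inhbe came next, from 7.83 over 8.54 to 9.17 in females and from 7.49 over 8.28 to 8.95 in males. The mean difference was 0.24 ± 0.076 on the log2 scale (limma, adjusted p = 0.0796). It passed the threshold without the 5 mice whose Xist level went against their recorded sex (0.29, adjusted p = 0.0381) and without the 5 mice with an array apart (0.27, adjusted p = 0.0365). For the other 7 probe sets the difference between females and males lay between -0.06 and 0.10, with adjusted p of 0.406 and above. At an unadjusted p under 0.05, 2 of the 9 passed, against 15.98% of all probe sets.

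Genotype effects were sought by interval mapping, in which a LOD score of 3.4 or greater marks a chromosomal position where genotype and level go together. Fgf21, Rbp4 and the dim Angptl4 probe set reached it, 3 of 9, where 15.8% of all probe sets did. In 100 permutations of the mice by Haley-Knott regression 10.4% of the probe sets reached this score. On the chromosome of the own gene, 0 of 9 reached it, and the highest such score was 0.85, for Fetub, where 3.09% of all probe sets with a known chromosome did. At a Haley-Knott permutation p under 0.05, 1 of the 9 passed somewhere in the genome, the dim Angptl4 probe set (p = 0.0495 from the 100 permutations). The permutation p of Rbp4 was 0.772. The share of all probe sets under this permutation p was not computed.

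For Fgf21 the scan peaked at marker D5Mit259 (LOD score 3.48, Chromosome 5, 43 cM), away from the gene itself on Chromosome 7. It ran from 7.76 over 7.93 to 8.36 in the 21 mice with genotype A, from 7.49 over 7.94 to 8.2 in the 20 heterozygotes, and from 7.9 over 8.17 to 9.11 in the 19 mice with genotype B. The B group was the highest, at a mean of 8.20 ± 0.306 against 7.99 ± 0.169 and 7.90 ± 0.202 (SD), and the 3 groups overlapped. The position was loose: the score stayed within 1.5 of its highest value from 15 to 65 cM. By Haley-Knott regression the highest score was 3.56 (permutation p = 0.0792). Without the mice with the lowest and the highest Fgf21 value, an alternative chosen after the data were seen, the EM score was 2.88. With the first principal component of the arrays in the fit it was 3.13 on Chromosome 5, and the highest score, 3.35 on Chromosome 12, was also under the threshold. Without mice 223, 474 and 608 the Chromosome 5 score was 3.44 and a position on Chromosome 14 had a higher one, 4.03.

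The dim Angptl4 probe set reached 3.80 on Chromosome 4 at 65 cM, between D4Mit186 and D4Mit37. It was highest in the 10 mice with genotype B, at 3.70 ± 0.043, against 3.62 ± 0.080 (n = 36) in heterozygotes and 3.58 ± 0.084 (n = 14) with genotype A. These shifts are at the very bottom of the array's scale, and the highest score moved to Chromosome 10 (3.80) without the 5 mice whose Xist level went against the recorded sex. The main Angptl4 probe set had 2.49 on Chromosome 5 at 29.6 cM.

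Rbp4 had the highest score of the 9, 5.30, on Chromosome 6 at 20 cM, but its genotype groups hardly differed there. The 44 mice with genotype A averaged 13.05 ± 0.177 and the 16 heterozygotes 13.004 ± 0.141 (SD), with overlapping ranges. No mouse had B as its most likely genotype there. The position lies between markers at 0 and 30.4 cM, and only 29 of the 60 mice had a genotype there with a probability of 90% or more. By Haley-Knott regression the score at this point was 0.166, and at the markers alone the highest score of Rbp4 was 1.95. It was 2.25 without the 5 mice with an array apart, which include mouse 167 with the lowest Rbp4 level, and 2.59 without the mice with the lowest and the highest value. By Haley-Knott regression 2 of 9 hepatokine probe sets reached 3.4, against 14.9% of all.

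The other members had highest scores of 1.82 (Fetub, Chromosome 17) to 2.86 (Ahsg, Chromosome 9). Inhbe had 2.63 at 0 cM on Chromosome 12, Lect2 2.51 on Chromosome 7 and Angptl6 2.33 on Chromosome 5. None of these passed the threshold.

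**Figure D2:**
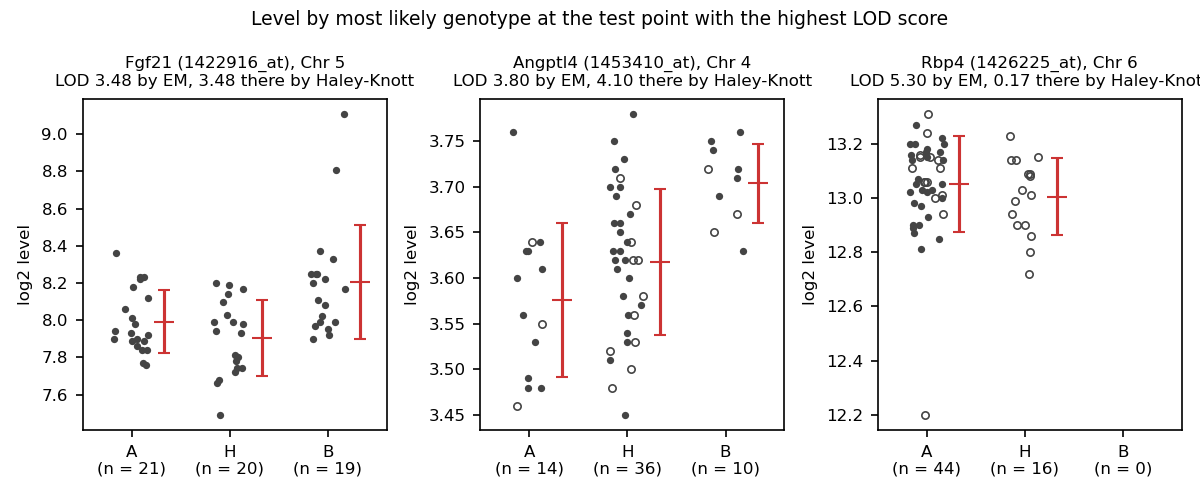
Level (vertical axes, log2) by most likely genotype at the position of the highest LOD score for the 3 probe sets at 3.4 or greater, 1 point per mouse; open points have a genotype probability under 90%, and bars give the mean and SD. Fgf21 is highest in the B group, and for Rbp4 the groups coincide while the lowest mouse (12.2) is an open point.

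Ahsg fell as liver triglyceride rose. Liver triglyceride ran from 85.3 over 573 to 1015 in 59 mice, with mg per g of tissue as the deposited unit. In that unit the highest value is more than the tissue itself would weigh, so the unit is in doubt. Across these mice Ahsg had r = -0.52 (permutation p = 3e-05) and Spearman's rho = -0.52 (permutation p = 6e-05). The slope was -0.000347 log2 units per deposited unit (limma, adjusted p = 0.0255). The relation had the same sign in both sexes, at r = -0.59 in 31 females and -0.42 in 28 males, and r was -0.60 once the 2 mice with the most unusual liver triglyceride (farthest from its median) were left out.

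This was the single pair of 81 hepatokine and phenotype pairs that passed, where 0.0207% of all pairs of a probe set and a phenotype and 0.147% of all probe sets for liver triglyceride did. With sex as a covariate the adjusted p was 0.0364. The call was lost without mice 223, 474 and 608 (adjusted p = 0.0842), without the 5 mice whose Xist level went against the recorded sex (0.0713), on ranks (0.0860) and without the mice with the lowest and the highest Ahsg value (0.0609). The slope was negative in each of these fits.

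A score over 10 adipocyte marker probe sets moved with this relation, at r = 0.52 with liver triglyceride, -0.51 with Ahsg and -0.57 with Fetub. The score ran from 6.85 to 7.64, and 3 of the 10 probe sets lay above the array median. Of the fat cell hormones, Adipoq stood at 4.55 to 5.56 and Lep at 5.94 to 6.37, below the array medians, and Retn at 8.03 to 8.58. The widest ranges belonged to Cidec (5.43 to 8.11), a lipid droplet protein, and 1 probe set of Car3 (9.14 to 12.91). The hepatocyte score ran from 11.98 to 12.44 and correlated with Ahsg at 0.425 and with liver triglyceride at -0.158. The part of these lists in the Ahsg result was not tested.

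Fetub and Angptl6 had the same sign with liver triglyceride, at r = -0.37 (limma, adjusted p = 0.259) and r = -0.34 (adjusted p = 0.363), and neither passed. Inhbe had r = 0.28 (adjusted p = 0.498), the opposite sign.

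Inhbe was the hepatokine with the most relations under the threshold for single tests: 9 of its 9 phenotypes had an unadjusted p under 0.05, and 0 passed after adjustment over all probe sets. Over the 81 pairs 23 did so (28.4%), against 6.69% of all pairs. The phenotypes are correlated with each other in the same mice, so these are not separate observations.

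The closest relation was with insulin at 10 weeks, which ran from 2.8 over 31.7 to 104 ng per ml in 57 mice. Inhbe rose with log10 insulin in the sample, with r = 0.52 (permutation p = 3e-05), Spearman's rho = 0.38 (permutation p = 0.00395) and a limma adjusted p of 0.0540. For insulin at 10 weeks 0.0133% of all probe sets passed. Without the 2 mice farthest from the median insulin r was 0.42. It was 0.31 in females and 0.56 in males. The adjusted p was under 0.05 without mouse 474 (0.0489) and with the first principal component in the fit (0.0371), and 0.134 with sex as a covariate.

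Inhbe went with body weight at 10 weeks at r = 0.47 (rho = 0.45, limma adjusted p = 0.231), at r = 0.46 in females and 0.32 in males. It went against glucose at 10 weeks, at r = -0.46 (rho = -0.38, limma adjusted p = 0.0634), where 0.0244% of all probe sets passed. Within the sexes the r of Inhbe with this glucose level was -0.19 in females and -0.46 in males. Median glucose was 419 mg per dl in males and 299 in females. With sex as a covariate the limma adjusted p of the Inhbe relation was 0.985. In that fit 0 of 45037 probe sets passed, so this value tells little about Inhbe. Plasma triglyceride at 10 weeks gave r = -0.44 (adjusted p = 0.491).

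The remaining relations were weaker. Fgf21 had r = -0.30 with glucose at 10 weeks and 0.29 with log10 insulin at 10 weeks, the same signs as Inhbe, with limma adjusted p of 0.416 and 0.567. The main Angptl4 probe set had r = -0.33 with log10 insulin at 10 weeks (adjusted p = 0.481). Rbp4 had r = -0.38 with body weight at 8 weeks (rho = -0.23, limma adjusted p = 0.99975), at -0.14 in females and -0.61 in males. The difference between its slopes in the sexes had an unadjusted p of 0.0111 and an adjusted p of 0.983 (limma interaction). Of the 81 interactions 0 passed and 3 had an unadjusted p under 0.05, and 0.0% of all pairs passed.

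**Figure D3:**
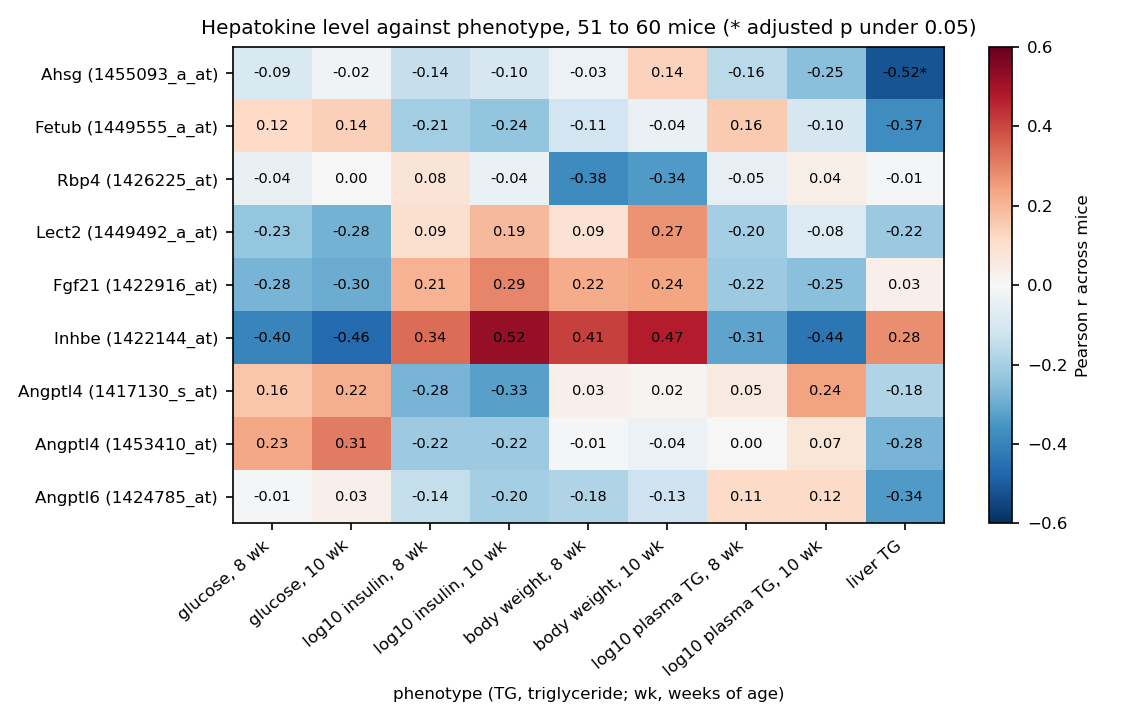
Pearson's r (colour and number) between the level of each hepatokine probe set (rows) and each phenotype (columns) across 51 to 60 mice; an asterisk marks the pair with a limma adjusted p under 0.05. In the Inhbe row insulin and glucose at 10 weeks stand at 0.52 and -0.46, and Ahsg with liver triglyceride (-0.52) is the one marked pair.

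Among the 28 pairs of hepatokine genes, 2 were correlated after adjustment over all probe sets: the fetuins with each other, and Fgf21 with Inhbe. Each pair was tested with either gene as the regressor, and the larger adjusted p is given. Ahsg and Fetub had r = 0.60 (permutation p = 1e-05, the smallest that 100000 permutations can give), rho = 0.59 and a limma adjusted p of 0.000461. The value was 0.73 in females, 0.52 in males and 0.59 without the 2 mice farthest from the median Ahsg level. Of 45036 other probe sets, Fetub was number 20 in its closeness to Ahsg, and Ahsg number 38 in its closeness to Fetub.

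Fgf21 and Inhbe had r = 0.54 (permutation p = 3e-05), rho = 0.53 and a limma adjusted p of 0.00449. The value was 0.48 in females, 0.55 in males and 0.50 without the 2 mice farthest from the median Fgf21 level. Inhbe was number 44 by closeness to Fgf21, and Fgf21 number 40 by closeness to Inhbe. With sex as a covariate the adjusted p was 0.0189, and without the mice whose Xist level went against the recorded sex 0.0123. Mouse 2, the highest for Fgf21, had 8.95 for Inhbe, and the same mouse was the lowest of all for Lect2.

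Ahsg and Lect2 followed at r = 0.43 (rho = 0.46, limma adjusted p = 0.0538), with 0.16 in females and 0.54 in males, and the pair passed without the 5 mice with an array apart (adjusted p = 0.0140). Fgf21 and Rbp4 were the most opposed pair, at r = -0.36 (rho = -0.46, limma adjusted p = 0.0958), which passed without the same 5 mice (0.0289) and with sex as a covariate (0.0417).

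**Figure D4:**
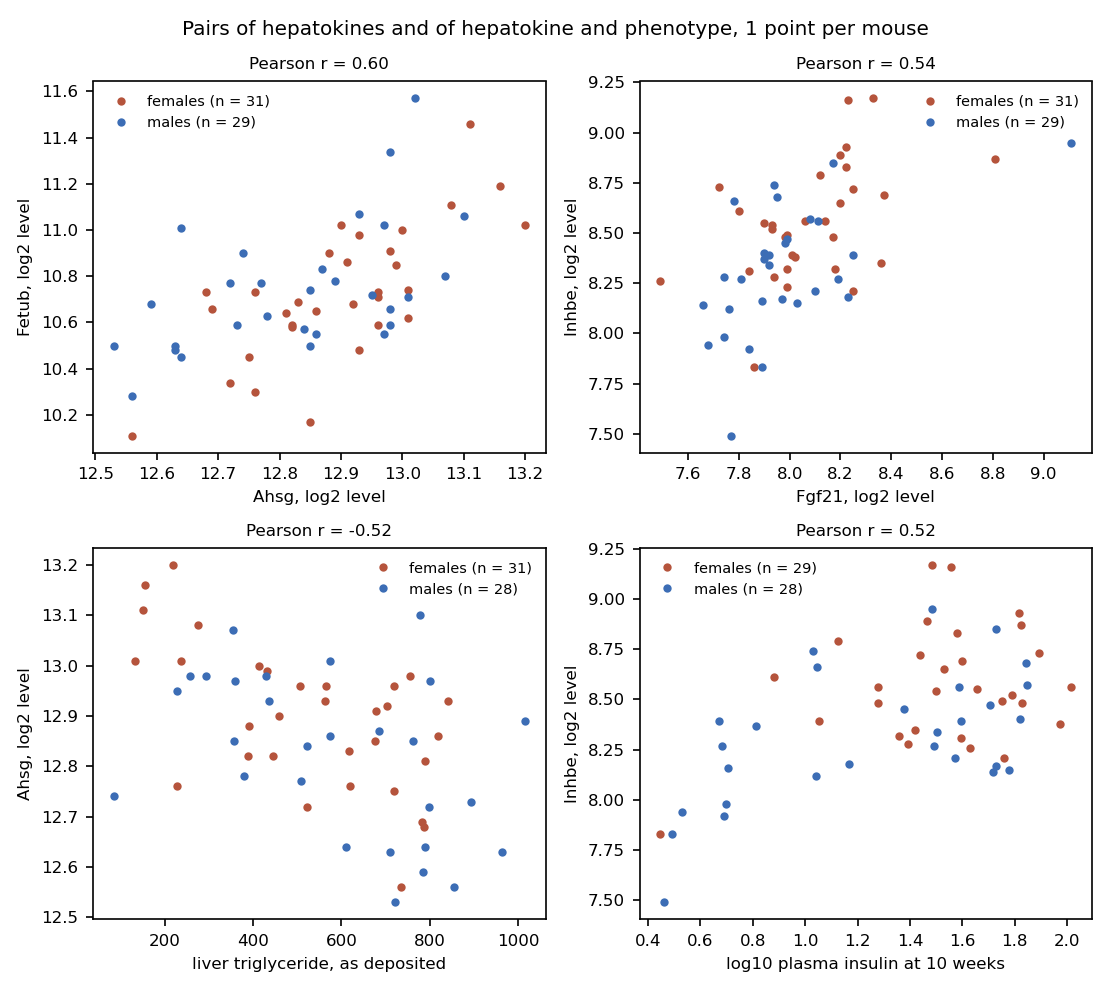
Upper panels: Fetub against Ahsg and Inhbe against Fgf21 (log2 levels). Lower panels: Ahsg against liver triglyceride (values as deposited) and Inhbe against log10 plasma insulin at 10 weeks (insulin in ng per ml). Each point is a mouse, coloured by recorded sex, and the points of both sexes rise together in the upper panels (r = 0.60 and 0.54 over all mice).

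The genes whose levels followed each hepatokine most closely across the 60 mice are given next, with limma adjusted p over all probe sets. Ahsg was correlated with 304 probe sets (0.675% of all), led by Serpinf2 (r = 0.73), which encodes the inhibitor of plasmin, Lcat (0.70), the cholesterol esterifying enzyme of lipoproteins, Ang (0.67), Rdh16f2 (0.67) and Agt (0.66), which encodes angiotensinogen. Cyp4a12a (-0.60), a fatty acid hydroxylase, and Gstm3 (-0.58), a glutathione transferase, ran opposite. Adjusted p for these 7 lay between 5.92e-07 and 0.00116.

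Fetub was correlated with 286 probe sets (0.635%), led by Vtn (r = 0.77), the adhesion protein vitronectin, Serping1 (0.76), the inhibitor of complement C1, the acute phase protein Orm1 (0.72) and the inter-alpha-trypsin inhibitor heavy chains Itih4 (0.71) and Itih3 (0.71). Tcf20 (-0.61) and Sprr1a (-0.54) ran opposite. Without the 5 mice with an array apart the shares of all probe sets were 0.16% for Ahsg and 0.271% for Fetub, and the 7 genes named for each still passed, with adjusted p of at most 0.0104 for Ahsg and 0.0379 for Fetub. Without the mice whose Xist level went against the recorded sex they were 0.437% and 0.557%.

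The other type 3 cystatins, relatives of the fetuins, were measured by 3 probe sets of 2 genes. All 3 were correlated with Fetub, namely Hrg (r = 0.61), the histidine-rich glycoprotein, and Kng1 (0.61 and 0.46), which encodes kininogen, and 1 with Ahsg, which was Hrg (0.52). Without the mice with an array apart, Hrg lost its call with Ahsg (adjusted p = 0.169), and the second Kng1 probe set lost its call with Fetub (0.183, and 0.0572 without the mice of discordant Xist level). Of 26 probe sets for further secreted liver proteins, 3 passed with Fetub: Orm1, Fgl1 (0.62) and Lcn2 (0.47). With Ahsg 2 passed, Smoc1 (0.45) and Fgl1 (0.45), and both lost their call without either group of 5 mice (adjusted p of 0.0710 and above).

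Fgf21 was correlated with 934 probe sets (2.07%). The share was 0.582% without the mice whose Xist level went against the recorded sex and 3.26% with sex as a covariate. 2010003K11Rik (r = 0.61), Apoa4 (0.60), the apolipoprotein A-IV, Tom1 (0.59), Serpinb6a (0.58) and Vamp2 (0.58) led, and Cyp2c50 (-0.72, adjusted p = 9.58e-07) and Antxr2 (-0.63), an anthrax toxin receptor, ran opposite. Without the 2 mice farthest from the median Fgf21 level, Cyp2c50 had -0.59 and Antxr2 -0.45. Apoa4 then had 0.54, 2010003K11Rik 0.50, Vamp2 0.47, Serpinb6a 0.45 and Tom1 0.44. A score over 9 Kupffer cell probe sets, 7 of them above the array median, ran from 7.82 to 9.04 and correlated with Fgf21 at 0.318, and its part in these counts was not tested.

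The stress response genes regulated by ATF4 were covered by 33 probe sets. With Fgf21, Atf3 (r = 0.45), Atf5 (0.43) and Psat1 (0.43), an enzyme of serine synthesis, passed in the same direction and Cth (-0.45), the cystathionine cleaving enzyme, in the opposite one. The Atf3 relation rested on the 2 mice farthest from the median Fgf21 level, with r = 0.19 without them. Without the same mice Atf5 had 0.32, Psat1 0.30 and Cth -0.42. The Psat1 probe set lay low on the array's scale, at a mean of 4.04. All 4 genes lost their call without the mice whose Xist level went against the recorded sex (adjusted p of 0.0654 to 0.106). With Inhbe 0 of the 33 passed. Of all probe sets 2.07% passed with Fgf21 and 0.799% with Inhbe, so the count of 0 tells little about this list. Median r over the list was 0.07 with Fgf21 and -0.07 with Inhbe, beside 0.00 and -0.03 over all probe sets.

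PPAR alpha and its targets were covered by 18 probe sets, of which 1 passed with Fgf21, Plin2 (r = 0.46), whose product coats lipid droplets, and 0 with Angptl4, beside 2.07% and 0.0% of all probe sets. Plin2 lost its call without the mice whose Xist level went against the recorded sex (adjusted p = 0.0820). With Inhbe 4 passed, all in the same direction, for Plin2, Ppara and Vnn1, where 0.799% of all probe sets passed with Inhbe. Ppara and Vnn1 are named here after their values were seen. Median r over the list was 0.27 with Inhbe, beside -0.03 over all probe sets. Carbohydrate responsive genes of ChREBP gave 0 of 23 with Fgf21 and 2 with Inhbe (Fasn and Pklr, named in the same way). Of these 23, 5 were higher in females than in males, Pklr among their genes, where 1.45% of all probe sets differed between the sexes. Whether Ppara, Vnn1, Fasn and Pklr passed with sex as a covariate or without the mice of discordant Xist level was not examined. The receptors and co-receptors of Fgf21 gave 0 of 17 with Fgf21, and insulin responsive genes 0 of 14 with Fgf21 and with Inhbe. Beside 2.07% of all probe sets with Fgf21 and 0.799% with Inhbe, these counts of 0 tell little about the lists.

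Inhbe was correlated with 360 probe sets (0.799%), led by Plin2 (r = 0.73, rho = 0.74, adjusted p = 6.33e-07), 2010003K11Rik (0.68), Mgll (0.66), the monoacylglycerol lipase, Reep5 (0.66) and G0s2 (0.66), an inhibitor of adipose triglyceride lipase. Cps1 (-0.58), the first enzyme of the urea cycle, and C8b (-0.58), a subunit of complement C8, ran opposite. 2010003K11Rik thus led for both Fgf21 and Inhbe. The share was 0.215% with sex as a covariate and 0.659% without the mice whose Xist level went against the recorded sex, and all 7 named genes passed in both. Of the further secreted proteins, Enho (-0.45) passed with Inhbe but not with sex as a covariate (adjusted p = 0.219), without the mice with an array apart (0.0815) or without those of discordant Xist level (0.0662), and Igf1 (-0.45) with Fgf21 but not without the mice of discordant Xist level (0.0545). Of 27 probe sets for activins, inhibins, their binding proteins and receptors 0 passed with Inhbe, which tells little beside the 0.799% of all.

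Lect2 was correlated with 2015 probe sets (4.47%), and with 18 once sex was a covariate. The 5 highest were AW112010 (r = 0.65), Nr1i3 (0.65), the xenobiotic receptor CAR, Slc22a27 (0.62), Nmi (0.61) and Vnn3 (0.59), and the lowest were the Y-linked Uty (-0.61) and Adgrl1 (-0.60). Lect2 had r = -0.360 with a score over 6 lymphocyte probe sets (6.38 to 6.71, 2 above the array median) and -0.313 with the red blood cell score, whose part in these counts was not tested. With sex as a covariate AW112010, Nmi and Nr1i3 still passed (adjusted p of 0.0205, 0.0327 and 0.0357) and the other 4 did not (0.0561 to 0.101). Among 4 probe sets for proteins that have been described to bind Lect2, Cd209a (-0.42) passed, and it did not with sex as a covariate (adjusted p = 0.0961) or without the mice of discordant Xist level (0.0563). Of the further secreted proteins, Dpp4 (0.41), a peptidase, passed with Lect2 but not with sex as a covariate (adjusted p = 0.180). Without the mice of discordant Xist level Dpp4 still passed (0.0392).

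Rbp4 was correlated with 1586 probe sets (3.52%), with Slc2a2 (r = 0.79), the glucose transporter GLUT2, Akr1c6 (0.74), Fmo1 (0.74), Gsta3 (0.74) and Car8 (0.73) at the top and Flot1 (-0.75) and Igdcc4 (-0.74) at the bottom. Without the 2 mice farthest from the median Rbp4 level these became 0.54, 0.47, 0.59, 0.44, 0.57, -0.42 and -0.44. All 7 passed without the 5 mice with an array apart, mouse 167 among them (adjusted p of 0.000578 to 0.0362). Rbp4 had r = 0.321 with the first principal component, -0.387 with a score over 2 red blood cell probe sets (7.16 to 8.13, 1 above the array median), -0.346 with the Kupffer cell score and 0.307 with the adipocyte score. The part of these in the Rbp4 counts was not tested. In the retinoid list, 5 of 18 probe sets passed and rose with Rbp4, among them Ttr (0.58), the plasma partner of Rbp4, Aldh1a1 (0.53), which makes retinoic acid, and Rdh10 (0.51 and 0.45). Not every probe set of Ttr passed. The second Rdh10 probe set lost its call without the mice with an array apart (adjusted p = 0.104). Of the 26 probe sets for further secreted proteins 6 rose and 3 fell with Rbp4, among them Dpp4 (0.57), Lcn2 (-0.54), Hamp (0.49), which encodes hepcidin, and the selenium carrier Selenop (0.47). Hamp lost its call without the mice with an array apart (0.289). With Rbp4, 3 of the 18 PPAR alpha probe sets fell, and of the 33 ATF4 probe sets 1 rose and 7 fell.

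Angptl6 was correlated with 234 probe sets (0.52%), and with 3 without the 5 mice with an array apart. Igfals (r = 0.63), the acid labile subunit of the IGF complex, Apeh (0.62), Oxld1 (0.60), Hagh (0.59) and Inhbc (0.58), the activin subunit beta C, led, and Tram1 (-0.51) and Canx (-0.51), proteins of the endoplasmic reticulum, ran opposite. None of these 7 passed without those mice (adjusted p of 0.128 to 0.372). Mouse 167 was also the lowest for Angptl6.

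The main Angptl4 probe set was correlated with 0 probe sets after adjustment by limma (0.0%), though 3689 had an unadjusted p under 0.05, and with 15 without the 5 mice with an array apart. Closest were Rabgef1 (r = 0.54), Nfu1 (0.53), Arih2 (0.53), Eci2 (0.53), an enzyme of fatty acid oxidation, and the metallothionein Mt2 (0.51), with adjusted p of 0.0617 to 0.0735. Farthest were Srsf10 (-0.47) and Mapre3 (-0.44). Of 17 probe sets for lipoprotein lipase, its anchor and its other regulators, and of 5 for other angiopoietin-like proteins, 0 passed with Angptl4. As 0 of all probe sets passed with it, these counts tell nothing about the lists.

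**Figure D5:**
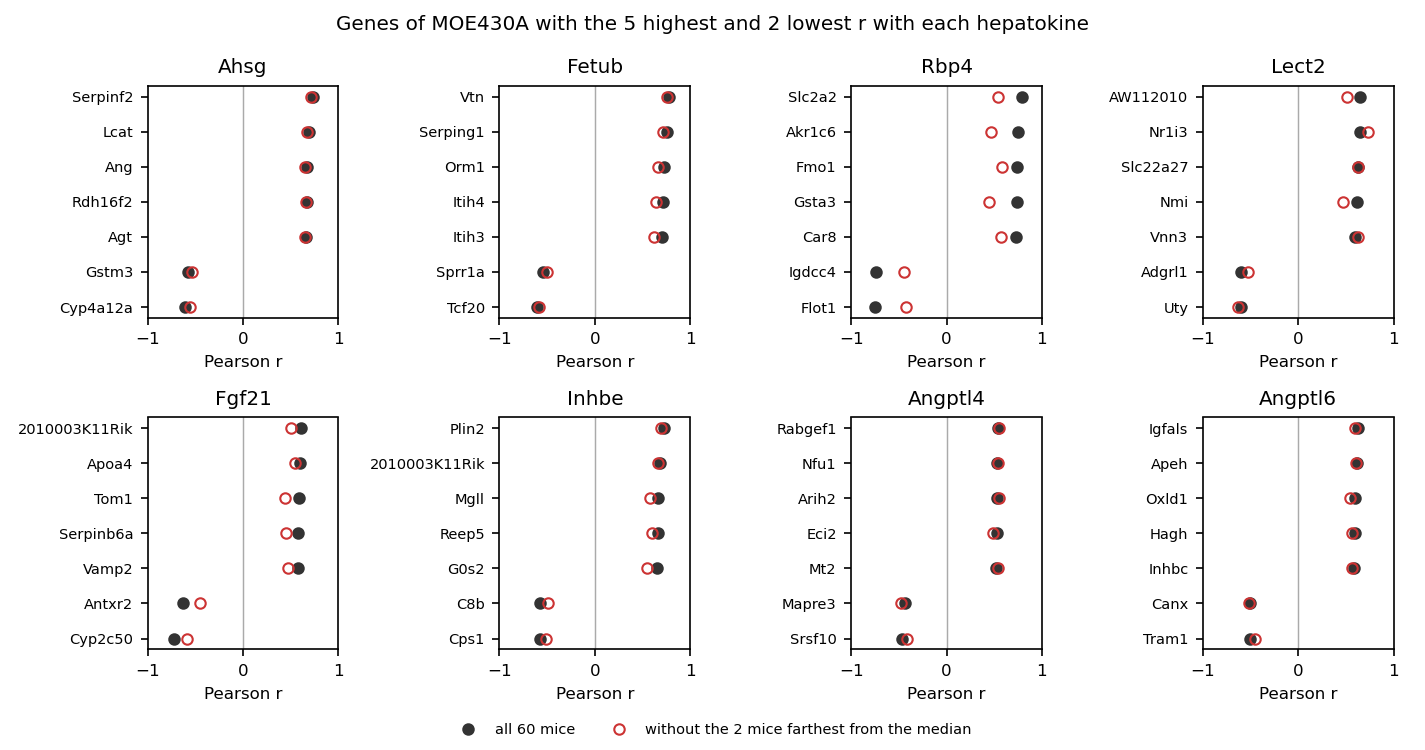
Pearson's r (horizontal axes) of the 5 most positive and 2 most negative genes of MOE430A with each hepatokine, over all 60 mice (filled) and without the 2 mice farthest from the median level of the hepatokine (open). For Rbp4 the values shrink, as with Slc2a2 from 0.79 to 0.54, while for Ahsg they stay close, as with Serpinf2 (0.73 and 0.71).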

How the data were processed

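Liver RNA of 60 mice was hybridized to MOE430A and then MOE430B arrays. Cell intensities came from MAS5 and were summarised with RMA by the authors, who deposited log2 expression values; no program version is stated. Each array type was normalized on its own, and levels were compared only within a type. Phenotypes and genotype letters were used as deposited, in units given by the authors, and insulin and plasma triglyceride were turned to log10 here. Of the deposited mouse data, 15 columns (RT-qPCR values and the authors' log10 insulin) were not used.

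The hepatokines and the 12 gene lists were chosen with earlier results of these data known. Interval mapping by the EM algorithm, after R/qtl, covered 545 test points (steps of 5 cM, 19 autosomes, genotyping error 0.0001) and ran in Python 3.11.15 (numba 0.67.0, pandas 2.3.3, numpy 2.4.6, scipy 1.17.1). Sex, phenotypes and correlations with each hepatokine were fitted with limma 3.58.1 in R 4.3.3 on all probe sets, with Benjamini-Hochberg adjustment over all of them and a threshold of 0.05. Permutation p are two-sided, from 100000 resamples. Named genes are the 5 highest and 2 lowest r per hepatokine on MOE430A and up to 4 passing probe sets per list. An array stood apart when its median correlation with the others lay over 3 MAD below the median; Xist was split at the midpoint of the medians of the sexes. Both fits were tested on simulated data. Figures were drawn with matplotlib 3.10.9.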

Additional observations from a re-analysis of the deposited data

How the results depend on the processing

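Of 219 values under alternatives 158 were classed as the same as the main one, and 21 of the counts moved. Counts and LOD scores have no direction that could reverse. Among the slopes and differences 0 reversed, where a reversal was counted only if the main or the alternative fit passed. The count of 3 hepatokine probe sets with a LOD score of 3.4 or greater was 1 at the markers alone, 1 on normal scores of the ranks, 1 without the mice with the lowest and the highest value, 0 in females alone by Haley-Knott regression, and 1 at a LOD score of 5.0. It was 2 by Haley-Knott regression, with the deposited 145 markers, with the first principal component, without the mice with an array apart and in males alone, and 3 in the other alternatives, though peaks moved to other chromosomes in some of them. The count of 1 that differed between females and males was 0 with the first principal component in the fit, 2 without the mice with an array apart, and 2 without the mice whose Xist level went against the recorded sex. The count of 1 pair with a phenotype was 2 with the first principal component, 3 among probe sets above the median level, 3 with adjustment within each array type and 3 without mouse 474. It was 0 without mice 223, 474 and 608, 0 without the mice whose Xist level went against the recorded sex, 0 in females and 0 in males alone, 0 on ranks and 0 without the mice with the lowest and the highest value. The 2 pairs of hepatokines were 4 without the mice with an array apart, 1 in females alone and 0 in males alone, and 3 among probe sets above the median level, with adjustment within each array type and with sex as a covariate. Fits in 1 sex hold fewer mice, and for the other changes the cause was not tested. Scores on the own chromosome and slopes that differ between the sexes were 0 throughout. Adjusted p ranged from 0.00430 to 0.118 for Lect2 between the sexes, from 0.00827 to 0.428 for Ahsg with liver triglyceride, from 0.000257 to 0.176 for Ahsg with Fetub and from 0.000668 to 0.998 for Fgf21 with Inhbe. The alternatives without the lowest and highest mice and without the mice of discordant Xist level were chosen after seeing the data. No paired analysis was possible because the groups that share mouse numbers are the 2 array types of the same mice, which were normalized apart and not compared. The mean of the dim Angptl4 probe set lay above 1.01% of its array type, which limits what its shifts can show.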
